A study of Mus musculus with 12 samples.

Results

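A set of 10 genes that RAS signalling through ERK is known to switch on, and whose products mostly turn that signalling down again, was followed in 12 mouse oral tumours. They are Dusp4, Dusp5, Dusp6, Spry1, Spry2, Spry4, Spred1, Spred2, Etv4 and Etv5, taken by name through probesets that the platform table gives to a single symbol. All 10 were measured, among 23102 genes. Of the tumours, 6 carried RAS together with a transgene labelled iHPV (mice labelled KHR; another label names HPV E6), and 6 carried RAS alone (mice labelled KR). Every mouse was a C57BL/6 x FVB F1 animal treated with tamoxifen, so RAS and tamoxifen are common to both groups, and no tumour without RAS and no normal epithelium was analysed here. The labels spell out neither KHR nor KR, and give no promoter or Cre line, RAS allele, age or sex. Whether each tumour is from a mouse of its own is not stated, and the p-values rest on the variation among these 12 tumours. Each tumour was hybridised to 1 Affymetrix Mouse Gene ST array, and the number of arrays limits the precision. Values are log2 intensities, a gene's value being the median of its probesets, and a change is the KHR mean minus the KR mean in log2 units.

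ERK is the last kinase of the cascade that runs from growth factor receptors through RAS, RAF and MEK. Among the genes it induces are its own brakes. DUSP4, DUSP5 and DUSP6 are phosphatases that remove phosphate from MAP kinases, DUSP6 in the cytoplasm and with a preference for ERK, DUSP4 and DUSP5 in the nucleus. Sprouty proteins act between the receptor and RAF, and SPRED proteins bring neurofibromin, which switches RAS off, to the membrane. ETV4 and ETV5 are ETS transcription factors of the PEA3 group, which are raised by ERK and FGF signals and carry part of the response. The comparison asks how this output differed between RAS tumours with the viral transgene and RAS tumours without it.

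The upstream sequences of 3 members are shown because they stand for the 3 outcomes described below: Dusp6, which rose, Dusp5, a phosphatase of the same family whose groups lay level, and Spry1, which was lower without passing the test. They are the 250 bases before the annotated start of each gene, 5′ to 3′ on the strand of the gene, from RefSeq (GRCm38.p6), at chr10:99262981-99263230 (plus strand), chr19:53528895-53529144 (plus strand) and chr3:37639697-37639946 (plus strand). Capitals mark GGAA or its reverse complement TTCC, the core that ETS factors read, and the CArG box read by SRF.
Dusp6: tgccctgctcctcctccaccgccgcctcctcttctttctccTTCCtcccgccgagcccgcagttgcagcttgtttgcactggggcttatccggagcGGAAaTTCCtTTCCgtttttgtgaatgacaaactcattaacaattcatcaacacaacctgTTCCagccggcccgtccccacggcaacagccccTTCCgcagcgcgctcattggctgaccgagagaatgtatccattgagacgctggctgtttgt
Dusp5: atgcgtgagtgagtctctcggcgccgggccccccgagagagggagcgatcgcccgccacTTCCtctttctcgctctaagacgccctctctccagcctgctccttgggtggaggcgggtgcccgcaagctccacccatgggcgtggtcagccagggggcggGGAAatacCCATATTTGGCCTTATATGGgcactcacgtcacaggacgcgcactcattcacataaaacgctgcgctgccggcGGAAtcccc
Spry1: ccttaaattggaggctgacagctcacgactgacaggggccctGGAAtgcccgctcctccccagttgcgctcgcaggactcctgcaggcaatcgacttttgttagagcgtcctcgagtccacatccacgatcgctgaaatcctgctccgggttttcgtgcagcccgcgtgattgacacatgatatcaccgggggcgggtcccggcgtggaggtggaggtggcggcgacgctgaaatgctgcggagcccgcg
The Dusp6 window held 6 copies of the ETS core, against a median of 3 over 32851 promoter windows of the same length, of which 91.3% held fewer. Dusp5 and Spry2 held 3 each and Spry1 held 1. Spred2, whose groups lay level, held the most of any member, 7 (96.2% of windows held fewer), Spred1 held 4, and the 2 windows of Etv5 held 4 and 0. The number of copies therefore did not order the members by their change, and 93.4% of all windows held at least 1. Dusp5 carried 2 CArG boxes side by side, a motif present in 1.47% of all windows and in no other member with a window. Windows were at hand for 7 of the 10 members (8 windows, Etv5 having 2). None of these held the longer ETS motif CCGGAAGT (2.88% of all windows), the AP-1 motif TGANTCA (6.75%) or the cyclic AMP motif TGACGTCA (1.55%), searched on both strands. These matches describe the letters only.

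Of the 10 genes, 1 rose in KHR tumours, none fell and 9 did not pass the test (limma, Benjamini-Hochberg adjusted over all genes, threshold 0.05). Over all genes 3.74% were called, 2.71% as higher and 1.03% as lower in KHR tumours. By sign alone 4 members were higher and 6 lower. Their median change was -0.020, against 0.0045 over all genes, and their median absolute change was 0.22, against 0.12. Levels were not matched in these comparisons: 0 of the 10 members lay below the median level, where 11551 of all 23102 genes did. Whether the members differed more than genes of like level was not tested. At an unadjusted p under 0.05 there were 4 members, where 15.9% of all genes stood. The 4 were Dusp4, Dusp6 and Spry4, on the higher side, and Spry1, on the lower. The plot of their values by tumour shows differences to both sides.

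**Figure D1:**
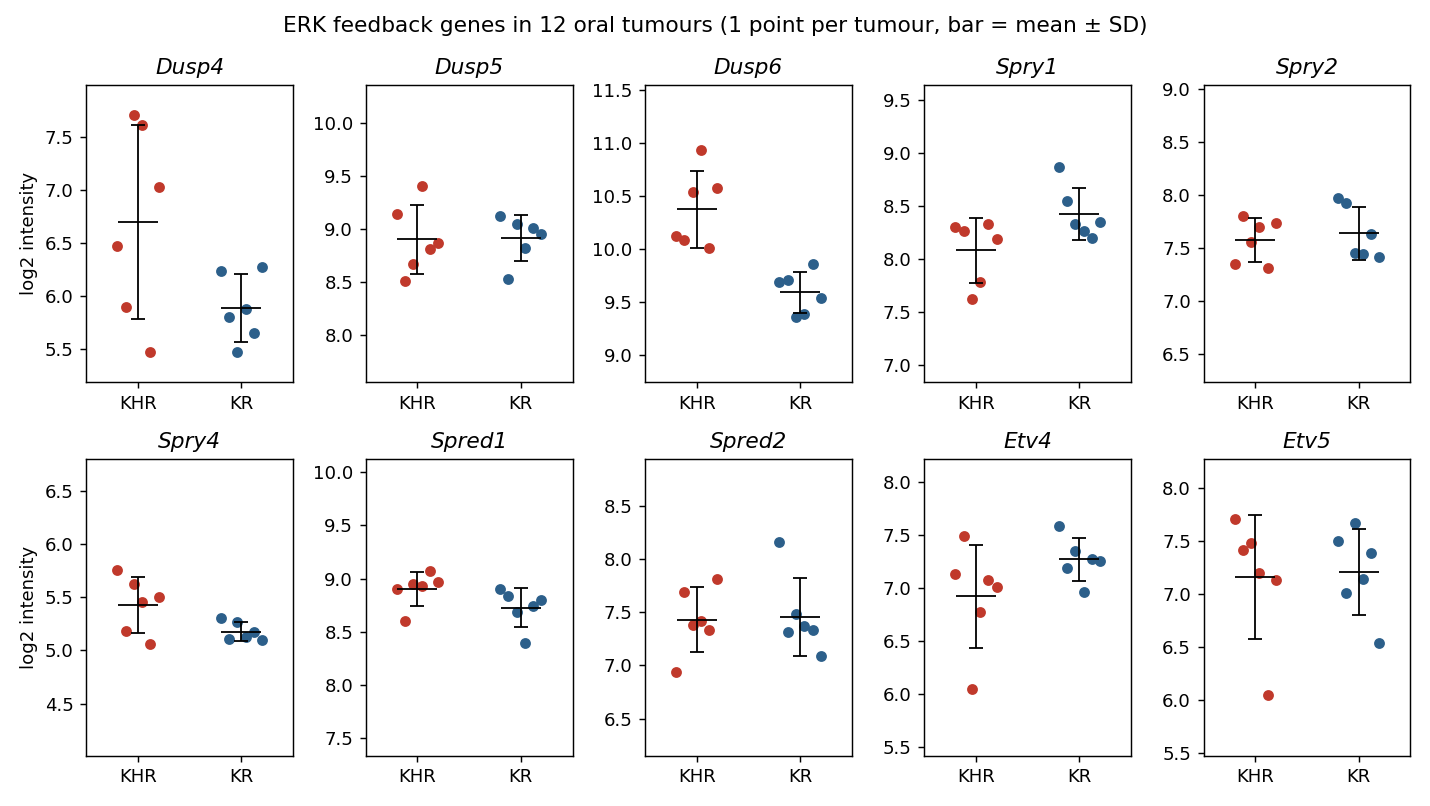
Log2 intensity (y axis) of the 10 ERK feedback genes in each tumour (points), with KHR tumours left and KR tumours right in each panel; bars are mean ± SD, n = 6 each, and every panel spans the same number of log2 units. The Dusp6 panel is the only one of the 10 in which all KHR points lie above all KR points, and Dusp4 has a KHR SD of 0.91 against a KR SD of 0.32.

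Dusp6, the cytoplasmic ERK phosphatase, was the member that rose. Its lowest, median and highest values were 10.01, 10.33 and 10.93 in KHR tumours, against 9.36, 9.61 and 9.85 in KR tumours. Every KHR tumour lay above every KR tumour, which was so for 1 of the 10 members and for 1.83% of all genes (2.67% in either direction, 0.84% with KHR below KR). The highest were KHR 4, KHR 6 and KHR 3, at 10.93, 10.57 and 10.54. Dusp6 averaged 10.37 ± 0.36 in KHR tumours and 9.59 ± 0.19 in KR tumours (SD, n = 6 each). The change was 0.79 ± 0.16 log2 units (SE; adjusted p = 0.0131 in limma). That is 1.72-fold, with a 95% confidence interval of 1.37 to 2.18. An exact permutation test over the 12 tumours, two-sided, gave p = 0.0021645, the smallest it can give, which adjusted over all genes was 0.0810.

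The call of Dusp6 held on leaving out each tumour in turn, with adjusted p between 0.0105 and 0.0339. It was lost when the mean of the 12 keratinocyte markers entered the fit (change 0.56, adjusted p = 0.0596) or that of the 8 macrophage markers (change 0.87, adjusted p = 0.0578, both in limma).

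Dusp4, a nuclear phosphatase of the same family, had the most uneven values. Its lowest, median and highest values were 5.47, 6.75 and 7.71 in KHR tumours, against 5.47, 5.84 and 6.27 in KR tumours. The groups overlapped: KHR 3, KHR 4, KHR 6 and KHR 1 stood above all KR tumours, while KHR 2 and KHR 5 lay within the KR range. The difference of 0.81 ± 0.34 (SE) was close in size to that of Dusp6 but did not pass (adjusted p = 0.252 in limma; 95% confidence interval 0.079 to 1.55, unadjusted). Without KHR 5 it was 1.06 (adjusted p = 0.0752), and without KHR 3 it was 0.61 (adjusted p = 0.441). With the keratinocyte marker mean in the fit it was 0.33 (adjusted p = 0.746), and with the macrophage marker mean 1.25 (adjusted p = 0.176, both in limma).

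Dusp5, a nuclear phosphatase with a preference for ERK, lay level. Its lowest, median and highest values were 8.51, 8.84 and 9.41 in KHR tumours, against 8.53, 8.98 and 9.13 in KR tumours. The difference was -0.011 ± 0.15 (SE; adjusted p = 0.986 in limma), with a 95% confidence interval of -0.33 to 0.31. In size, the 2 largest differences among the 10 members and the smallest were thus those of the 3 phosphatase genes.

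The Sprouty genes differed in both directions, and none passed. Spry1 values had a lowest, median and highest of 7.62, 8.23 and 8.33 in KHR tumours, against 8.20, 8.34 and 8.86 in KR tumours. KHR 3, KHR 4 and KHR 6 lay below every KR tumour, KHR 6 by a margin under 0.01. The Spry1 difference was -0.34 ± 0.15 (SE; adjusted p = 0.274 in limma), and it passed with median polish in place of the median over probesets (-0.44, adjusted p = 0.0463). With the keratinocyte mean in the fit it was -0.18 (adjusted p = 0.727 in limma). Spry4 had a lowest, median and highest of 5.06, 5.48 and 5.76 in KHR tumours, against 5.10, 5.15 and 5.30 in KR tumours. There were 4 KHR tumours above all KR tumours and KHR 5 was below them all, and the difference was 0.25 ± 0.12 (SE; adjusted p = 0.304 in limma). The Spry4 level was near the median level over the genes (4.98), where no detection call was at hand to say how exact the difference is. Spry2 stood at 7.58 ± 0.20 in KHR tumours and 7.64 ± 0.25 in KR tumours (SD, n = 6 each), with a confidence interval of the difference from -0.34 to 0.21.

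Neither SPRED gene passed. Spred1 stood at 8.90 ± 0.16 in KHR tumours and 8.73 ± 0.18 in KR tumours (SD, n = 6 each), a difference of 0.18 ± 0.11 (SE; adjusted p = 0.462 in limma; 0.11 with the keratinocyte mean in the fit). Spred2 stood at 7.43 ± 0.31 in KHR tumours and 7.46 ± 0.37 in KR tumours, a difference of -0.029 ± 0.18, whose confidence interval ran from -0.41 to 0.35. KR 1 was the highest of all 12 tumours in Spred2, at 8.16.

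The ETS factors of the PEA3 group did not pass either. Etv4 had a lowest, median and highest of 6.05, 7.04 and 7.49 in KHR tumours, against 6.96, 7.26 and 7.59 in KR tumours. The groups overlapped, with KHR 3 and KHR 4 below every KR tumour, and the difference was -0.35 ± 0.19 (SE; adjusted p = 0.427 in limma). Without KHR 3, the lowest tumour, it was -0.17. It was also smaller with the mean of probesets (-0.12), with median polish (-0.14), as the median over single probesets (-0.13) and with the keratinocyte mean in the fit (-0.16). Etv5 had a lowest, median and highest of 6.04, 7.30 and 7.70 in KHR tumours, against 6.54, 7.26 and 7.67 in KR tumours. The difference of Etv5 was -0.045 ± 0.26 (SE), with a confidence interval from -0.59 to 0.50.

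**Figure D2:**
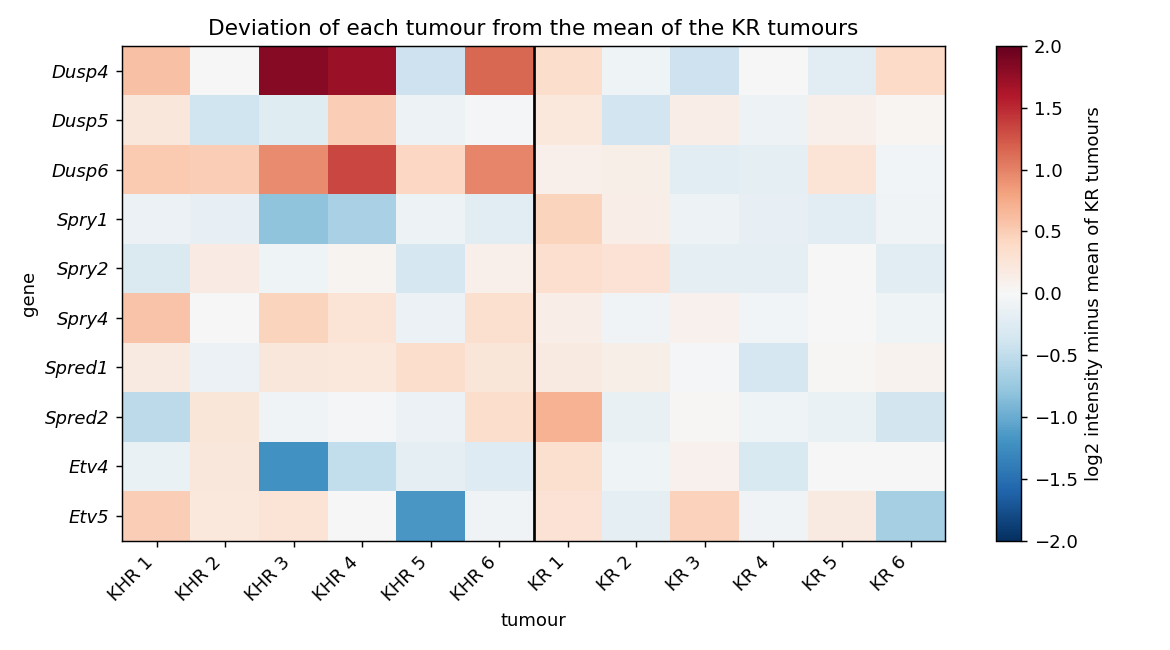
Log2 intensity of each ERK feedback gene (rows) in each tumour (columns, KHR left of the line, KR right) minus the mean of the 6 KR tumours. KHR 3, KHR 4 and KHR 6 are red for Dusp4 and Dusp6, deepest for Dusp4 in KHR 3 and KHR 4. KHR 3 and KHR 4 are blue for Spry1 and Etv4, and KHR 5 is blue for Etv5.

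The spread over tumours was set beside the levels. In 7 of the 10 members the SD was larger in KHR than in KR tumours, by 2.87 times for Dusp4, 3.05 times for Spry4, 2.36 times for Etv4 and 1.86 times for Dusp6. The share of all genes with a larger SD in KHR tumours was not counted, so the 7 of 10 is a description only. A limma fit on the absolute deviations from the group mean called none of the 10 (adjusted p = 0.475 for Dusp4), and 3 had an unadjusted p under 0.05. Over all genes 0.0303% were called for spread, and 7.83% had an unadjusted p under 0.05. Within groups, the pooled SD of Dusp4 was larger than that of 98.7% of all genes and that of Etv5 larger than that of 95.4%, while Spred1 was above 26.6%. Levels were not matched in this ranking.

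Several KHR tumours repeated a pattern across members. KHR 3 and KHR 4 had the 2 highest Dusp4 values, the 2 lowest Spry1 values and the 2 lowest Etv4 values of all 12 tumours. Within KHR tumours (n = 6), Dusp4 and Dusp6 had a Pearson r of 0.89 (exact permutation p = 0.0292) and a Spearman rho of 0.83 (exact permutation p = 0.0583). Without the 2 tumours farthest from the median Dusp4 value, r was 0.96 over the other 4. Dusp4 and Spry1 had an r of -0.87 (exact permutation p = 0.0222) and a rho of -0.94 (exact permutation p = 0.0167), and r was -0.84 without the 2 farthest tumours. Spry1 and Etv4 had the smallest p for r within KHR tumours (r = 0.87, exact permutation p = 0.0194). Their r fell to 0.070 without the 2 tumours farthest from the median Spry1 value. In KR tumours (n = 6) the r of Dusp4 was 0.12 with Dusp6 (exact permutation p = 0.779) and 0.54 with Spry1 (exact permutation p = 0.265). The smallest p of all pairs was that of Spry4 with Spred2 in KR tumours (r = 0.86, exact permutation p = 0.00417), whose r in KHR tumours was -0.43. Of the 90 within-group correlations, 45 in each group, 7 had an unadjusted p under 0.05 and none passed after adjustment (smallest adjusted p = 0.375). In KHR tumours the adjusted p of Dusp4 with Dusp6 and with Spry1 was 0.512 for r in both, and 0.525 and 0.375 for rho. With 6 values the smallest p this permutation test can give for rho is 0.00278, and for r it can be lower. A single pair at the smallest possible p, for rho or for r, could not pass after adjustment over 90, so the test had little power to call any. The median r over the 45 pairs was 0.060 in KHR tumours and 0.34 in KR tumours.

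**Figure D3:**
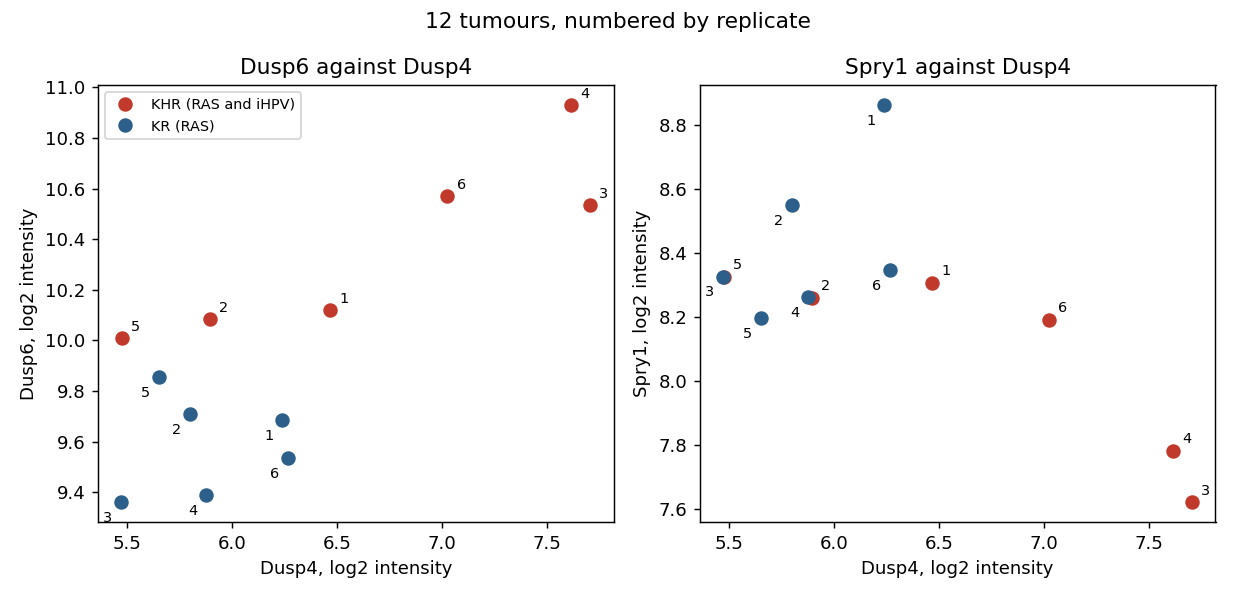
Dusp6 (left) and Spry1 (right) against Dusp4 in 12 tumours, all axes in log2 intensity, numbered by replicate, KHR in red and KR in blue. KHR 3, KHR 4 and KHR 6 have the 3 highest Dusp4 and Dusp6 values; KHR 3 and KHR 4 have the 2 lowest Spry1 values.

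The probesets of each gene, which read different parts of its transcript, were compared with the gene value. All 6 Dusp6 probesets were higher in KHR tumours, by 0.037 to 0.89, the change of 0.037 belonging to the dimmest (mean 4.25). One passed when tested singly (adjusted p = 0.0427 in limma over 233753 probesets, of which 1.02% were called, 0.721% as higher), and for no single probeset did the groups separate fully. All 7 Dusp4 probesets were higher, by 0.074 to 1.17, with a smallest adjusted p of 0.0904. All 7 Spry1 probesets were lower, by values from -0.68 to -0.16, and all 4 Spry4 probesets were higher, by 0.027 to 0.55. The probesets of Etv4 disagreed in sign, 7 higher and 10 lower. In Etv5, 1 probeset differed by 1.35 (adjusted p = 0.0533 in limma) where the rest lay between -0.51 and 0.25. Which exon it reads is not given by the table used to name probesets.

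**Figure D4:**
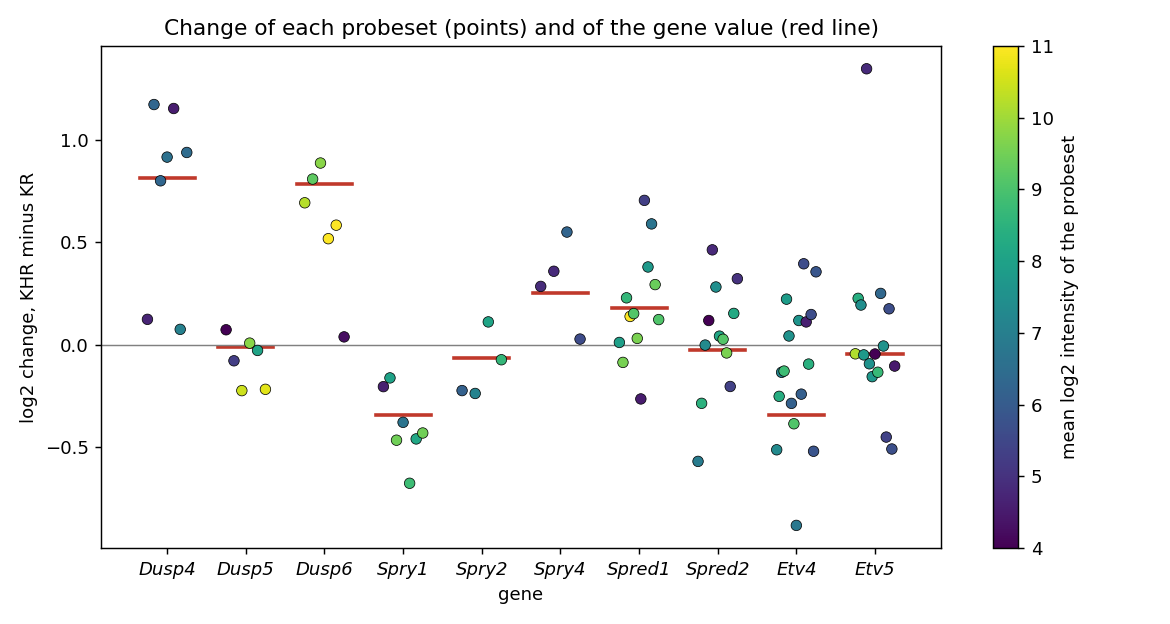
Log2 change, KHR minus KR, of every probeset (points, coloured by mean log2 intensity) of the 10 genes, with the change of the gene value as a red line. Dusp6, Dusp4 and Spry4 lie entirely above 0, Spry1 entirely below, and Etv5 has 1 dim probeset at 1.35.

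Other genes of the pathway were read from 7 lists with 81 measured members, of which 1 rose, 3 fell and 77 did not pass. In total these 4 of 81 are close to the 3.74% called over all genes. By direction more of the 4 fell than rose, whereas over all genes more were called higher (2.71%) than lower (1.03%). The median change over the 81 was 0.077. Gab1, a docking adaptor that links receptors to RAS activation, averaged 9.26 ± 0.06 in KHR tumours and 9.79 ± 0.11 in KR tumours (SD, n = 6 each), a change of -0.53 ± 0.08 (SE; adjusted p = 0.00174 in limma). Fgfr2, an epithelial FGF receptor, averaged 9.33 ± 0.08 in KHR tumours and 9.75 ± 0.14 in KR tumours, a change of -0.42 ± 0.08 (adjusted p = 0.0136). Rasa1, a GTPase activating protein that switches RAS off, averaged 10.36 ± 0.12 in KHR tumours and 9.93 ± 0.11 in KR tumours, a change of 0.43 ± 0.08 (adjusted p = 0.0112). In these 3 of the 81 genes the groups did not overlap, which was so for 2.67% of all genes in either direction. The 3 had been singled out by the limma test on the same values. With the macrophage marker mean in the fit Rasa1 and Fgfr2 did not pass (adjusted p = 0.120 and 0.134 in limma), nor did Fgfr2 with the keratinocyte mean (adjusted p = 0.0755). Ccnd1, the cyclin D1 gene and a target of ERK, differed by -0.52 ± 0.12 (adjusted p = 0.0346), which did not hold on leaving out each of 9 tumours (adjusted p up to 0.0778). Its call was also lost with the mean of probesets (-0.34, adjusted p = 0.0998 in limma), and with Xist (adjusted p = 0.0835), the muscle mean (0.0677), the keratinocyte mean (0.169) or the macrophage mean (0.138) in the fit.

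The list of adaptors and exchange factors had 1 of 15 past the test, Gab1, and the next smallest p was that of the adaptor Shc1, at 0.30 ± 0.15 (SE). The list of RAS inhibitors had 1 of 10, Rasa1, followed by Rasa4 at -0.35 ± 0.14. Rasa4 was dim, averaging 4.28 in KHR and 4.63 in KR tumours, below the median level over the genes (4.98). Of the RAS genes 0 of 5 passed. Rras2 differed by 0.43 ± 0.15 (adjusted p = 0.152 in limma; 0.00424 with median polish) and Hras by -0.33 ± 0.14 (adjusted p = 0.245 in limma). With median polish the Hras difference was 0.0042 (adjusted p = 0.984), and with the mean of probesets -0.058. Of 12 RAF, MEK and ERK kinases and scaffolds none passed, with Rps6ka1 at 0.23 ± 0.11 (a difference of -0.042 with median polish) and Ksr1 at 0.37 ± 0.24.

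Of 12 relatives of the feedback genes none passed, and the 2 smallest p-values belonged to Etv1, the third PEA3 factor, at -0.41 ± 0.19 (SE), and the phosphatase gene Dusp8, at -0.37 ± 0.19. Etv1 also lay below the median level over the genes, averaging 4.42 in KHR and 4.83 in KR tumours. At an unadjusted p under 0.05 in limma there were 11 of the 81 pathway genes, where 15.9% of all genes stood. By list these were 1 relative, 2 RAS genes, 1 kinase or scaffold gene and 1 adaptor. The rest were 2 RAS inhibitors, 3 other genes of ERK output and 1 FGF receptor. Among 14 other genes of ERK output 1 fell, Ccnd1, and Myc differed by -0.57 ± 0.17 (adjusted p = 0.0887 in limma; -0.39 with the mean of probesets, adjusted p = 0.0232). By sign alone 12 of these 14 were higher in KHR tumours, with a median of 0.17, where 11783 of all 23102 genes were higher. The other 2, Ccnd1 and Myc, were lower and had the smallest p-values of the list. Hbegf came next, on the higher side, at 0.62 ± 0.20 (SE, adjusted p = 0.114 in limma). Among 13 FGF receptors and ligands 1 fell, Fgfr2, and Fgfr3 differed by -0.32 ± 0.17 (adjusted p = 0.407; -0.50 with median polish, adjusted p = 0.0170).

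**Figure D5:**
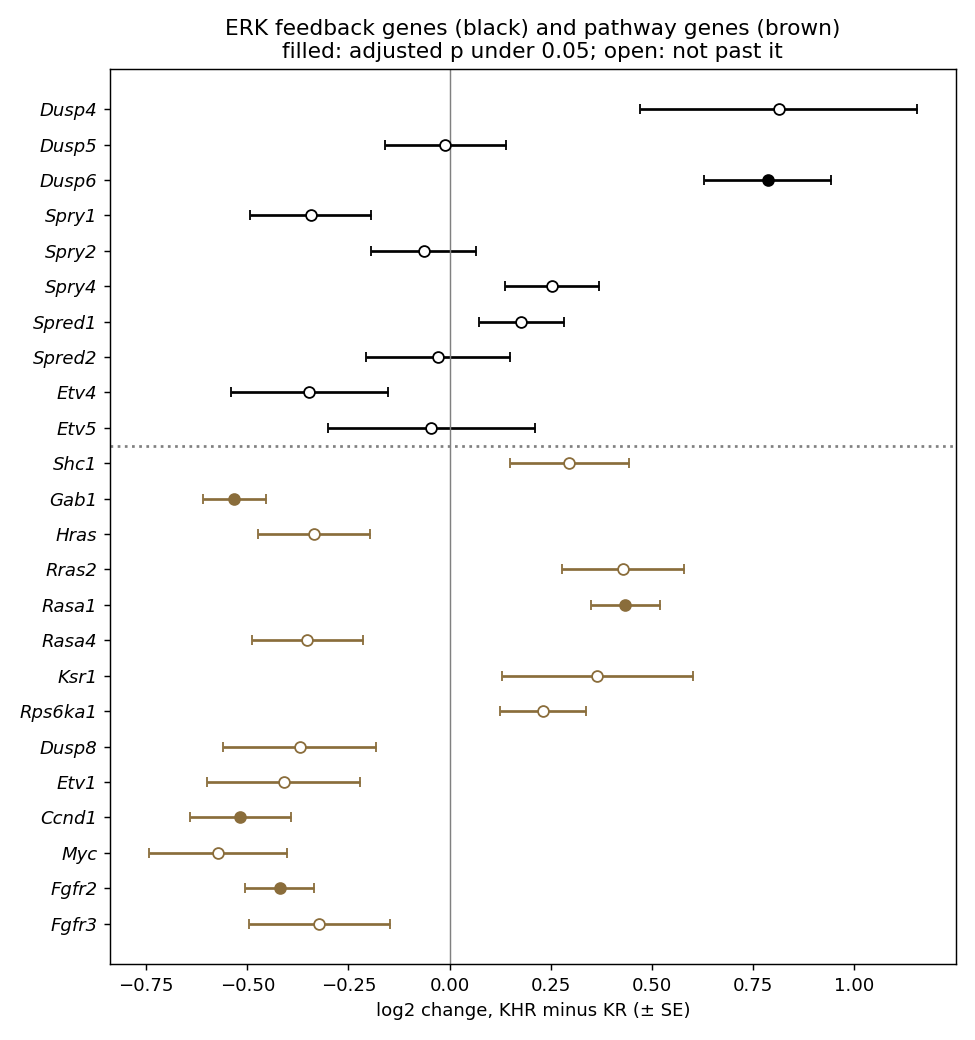
Log2 change, KHR minus KR, ± SE (x axis) of the 10 ERK feedback genes (black, above the dotted line) and of the pathway genes named by rule (brown, below it). Filled symbols passed the test: Dusp6 and Rasa1 to the right of 0, Gab1, Ccnd1 and Fgfr2 to the left.

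Across the other genes, the values most like those of Dusp6, after each group's mean was subtracted, were those of Cldn8, a claudin of tight junctions (Pearson r = 0.93, Spearman rho = 0.92), Gm7694 (r = 0.88) and Dnase1l1 (r = 0.85), over 12 tumours and 11541 genes above the median level. Cldn8 also rose, by 0.89 ± 0.18 (SE; adjusted p = 0.0122 in limma). For the mean of the 10 members they were Gm7040, 4833439L19Rik and Dcaf15 (r = 0.93, 0.93 and 0.92). These were picked as the highest of many and are given as a description.

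Cell type markers were read beside these values. The epithelial label held: the basal keratins Krt5 and Krt14 stood at 13.17 ± 0.14 and 13.08 ± 0.17 in KHR tumours and at 13.19 ± 0.12 and 12.98 ± 0.06 in KR tumours (SD, n = 6 each). The mean of 12 keratinocyte markers ranged from 11.55 to 11.83 in KHR tumours and from 11.50 to 11.65 in KR tumours, and KHR 4, KHR 3 and KHR 6 were its 3 highest tumours, as they were for Dusp6. By sign 8 of the 12 were lower in KHR tumours (median change -0.017), and the higher KHR mean rested mainly on Epcam (0.88) and Krt15 (0.52). None of the 12 passed the limma test (1, Epcam, at an unadjusted p under 0.05). The macrophage mean ranged from 6.28 to 7.26 in KHR tumours and from 5.63 to 6.77 in KR tumours (1 of 8 markers rose; by sign all 8 were higher, with a median change of 0.51), and the neutrophil mean from 7.71 to 8.13 in KHR tumours and from 6.88 to 7.84 in KR tumours (1 of 6 rose; by sign all 6 were higher, with a median change of 0.60). The neutrophil differences were uneven, largest in S100a9 (1.32) and S100a8 (1.08). They were smallest in Ly6g (0.15) and Mmp8 (0.12), the 2 markers below the median level of all genes. Of 9 fibroblast markers 1 rose and 1 fell, and endothelial (8), T and NK cell (6) and skeletal muscle (11) markers had none past the test. KHR 5, the lowest KHR tumour in Dusp4 and Dusp6, had the highest muscle mean, 7.90, and the highest macrophage mean. Beyond the fits given above, the part of these cells in the values of the feedback genes was not tested, and in whole tumours fewer cells of a type and less RNA per cell cannot be told apart. Xist, which marks female animals, was high in 4 KHR and 2 KR tumours, and with its level in the fit the Dusp6 change was 0.75 (adjusted p = 0.0358 in limma).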

How the data were processed

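The deposited table held log2 intensities, 1 per probeset and array, for 269751 probesets on 12 arrays (6 KHR, 6 KR). Per the submitters' processing notes Partek was used, with no version. How background was corrected, how arrays were normalized and which genome build was used is not given in the sources used here. That the deposited values are log2 was read from their range. Array medians ran from 5.62 to 5.75, and no pair of arrays correlated above 0.97, so none was a duplicate.

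Probesets were named by GEO's platform annotation, and old symbols were updated through RefSeq synonyms (GRCm38.p6; 2247 symbols updated, 30 unmatched). The 233753 probesets with 1 symbol gave 23102 genes, each the median of its probesets; 5106 probesets with several symbols and 30892 with none were left out. The 10 members had 4 to 17 probesets each, 90 in all, under their current symbols. No filter on low values was set.

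Groups were compared with limma 3.58.1 (lmFit, eBayes) in R 4.3.3, two-sided, without covariates, adjusted by Benjamini-Hochberg over all genes. Spread was tested by the same fit on absolute deviations from the group mean, scaled for n. Both fits were checked on simulated data. The spread check simulated a far larger ratio of SDs than any member showed, so it does not give the power at the members' ratios. Correlations of members within groups (exact permutation of 6 values, scipy 1.17.1) were added after the values were seen, as were the ETS core and CArG motifs. The text names all 10 members, and of each pathway list every gene past the threshold and in any case the 2 with the smallest p. A few further genes, such as markers, are named for the results that turn on them. Members and lists were chosen with earlier results of these data known. Alternatives were other summaries of probesets, scalings, filters, variance models, weights for arrays, a block for the replicate number, covariates, thresholds, a permutation test and leaving out each array.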

Additional observations from a re-analysis of the deposited data

Results flagged for a closer look

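Among the 20 sets of 6 values (10 genes in each group), 3 held a tumour whose gap to its nearest neighbour exceeded Dixon's critical value of 0.625 of the range; chance flags about 1 set in 20. Etv5 in KHR 5 was 6.04, with the next KHR tumour at 7.13. Spred1 in KHR 2 was 8.60, with the next KHR tumour at 8.90. Spred2 in KR 1 was 8.16, with the next KR tumour at 7.48. Without these tumours the differences were 0.18 for Etv5, 0.24 for Spred1 and 0.11 for Spred2, and none passed the test.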

How the results depend on the processing

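The change of Dusp6 stayed positive in all 16 other settings and on leaving out each tumour (0.67 to 0.86). It fell short of the threshold with the keratinocyte mean (0.56, adjusted p = 0.0596) or the macrophage mean (0.87, adjusted p = 0.0578) as a covariate. In the exact permutation test (0.79, adjusted p = 0.0810) no gene could pass, since that was the lowest adjusted p within its reach. The number of members called, 1, was 2 with median polish (Spry1 at -0.44 being the second), 0 with the keratinocyte or macrophage covariate and 0 at adjusted p under 0.01; leaving out tumours gave 1 to 1. The count over all genes, 863, was 1445 with the mean of probesets, 555 with Xist, 329 with the keratinocyte and 272 with the macrophage covariate, 312 at adjusted p under 0.01 and 1368 under 0.10. Leaving out tumours gave 523 (without KHR 4) to 1085, with 531 without KR 2. The other pathway genes called, 4, were 7 with the mean of probesets and 7 with median polish, 2 with the keratinocyte and 1 with the macrophage covariate (3 to 5 on leaving out tumours). The count for spread, 7, was 4 with deviations from the median and 10 in the other setting tried. Leaving out tumours gave 1 (without KR 4) to 6 (without KHR 4), and 2 or 3 without any other. The cause of these shifts was not tested.

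Differences near 0 changed sign. Dusp5 was 0.031 with the muscle covariate and -0.11 to 0.067 on leaving out tumours. Spry2 was 0.0079 with array weights and 0.034 with the macrophage covariate (-0.11 to 0.0011 on leaving out tumours). Spred2 was 0.024 with the mean of probesets, 0.080 with array weights and 0.033 as the median over single probesets (-0.11 to 0.11). Etv5 was 0.039 with the mean of probesets, 0.0056 with array weights, 0.15 with Xist, 0.16 with the muscle covariate and 0.057 with the macrophage covariate (-0.18 to 0.18). Of the pathway genes, Hras was 0.0042 and Rps6ka1 -0.042 with median polish. Leaving out tumours gave 0.61 to 1.06 for Dusp4, -0.39 to -0.25 for Spry1, 0.19 to 0.33 for Spry4, 0.11 to 0.24 for Spred1 and -0.46 to -0.17 for Etv4.

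Same-numbered tumours had correlations of deviations from -0.0029 to 0.23. KR 1 and KR 4 correlated best with the KHR tumour of their own number (0.23 and 0.17), and the others did not. These correlations cannot settle whether the numbers pair the samples, and the main fit did not pair them. With the replicate number as a block 925 genes were called, the members called stayed at 1, and Dusp6 had an adjusted p of 0.0493. The 6 arrays per group limit the precision, and no detection call was used for dim genes.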
